A study of Pimephales promelas with 26 samples.

Results

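The transcripts described here are 2 of the 57299 RefSeq transcript models measured in the series, one of each of 2 circadian clock genes. XM_039687623.1 is a transcript of tefb, which encodes a PAR bZIP transcription factor, and XM_039688795.1 is a transcript of nr1d2a, which encodes a nuclear receptor of the REV-ERB family. They were chosen because their fitted change under fluoxetine had been seen in these same libraries, so their changes are given as description and carry no test. Per the reference gene table, tefb had 6 transcript models in the data and nr1d2a had 2, and the remaining transcripts of both genes are described beside the chosen ones.

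Fathead minnows (Pimephales promelas), freshwater fish widely used in toxicity testing, were measured as whole larvae by poly(A)-selected RNA sequencing at 7 days after fertilization. Embryos had been kept in glass dishes at 23 °C under 16 h of light and 8 h of dark, and were exposed through the water from 6 h after fertilization to fluoxetine, an antidepressant that blocks serotonin reuptake, with daily renewal of the solution. RNA of 20 larvae was pooled for each library. The groups were a water control with 5 libraries, measured fluoxetine concentrations of 0.74, 3.38 and 10.2 µg/L with 5 libraries each, and measured concentrations of 0.19 and 47.2 µg/L with 3 libraries each. No strain, genotype or hour of sampling is given in the sources used here. The libraries carry replicate letters, A to E in the groups of 5 and A to C in the groups of 3, and the labels do not say what a letter marks. Per the protocol, every replicate had its own 20 embryos, so the errors below measure the spread between pools.

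The vertebrate clock is a feedback loop. CLOCK and BMAL proteins switch on the period and cryptochrome genes, whose products shut CLOCK and BMAL down again, and REV-ERB receptors repress while ROR receptors activate the bmal genes. PAR bZIP factors (TEF, HLF and DBP) and their antagonist NFIL3 bind the same DNA element and pass the rhythm on to output genes. In zebrafish larvae most tissues hold such a clock, which light can set directly, and tef is itself induced by light there.

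Total estimated counts per library lay between 13515478 and 27614956. A floor of 3 counts per library, which covers counting error only, was worth 0.109 to 0.222 CPM before scaling, where CPM is the count scaled to a common library total. All 46 replicate pairs differed beyond counting noise (smallest chi-square divided by its degrees of freedom 14.9), and no library was treated as a repeat deposit of another. Fragment length was derived from the effective transcript lengths given by the quantifier, as a median over transcripts of at least 3000 bases. It was 249 to 259 bases at 0.19 µg/L and 251 to 264 bases at 0.74 µg/L, against 236 to 241 bases in water. It overlapped the water range at 3.38, 10.2 and 47.2 µg/L. In whole larvae, fewer cells of a type and less RNA per cell cannot be told apart.

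The chosen tefb transcript was lower than in water, on average, at all 5 fluoxetine concentrations, with no grading by concentration. In water it had 84.7, 79.3, 50.2, 76.5 and 52.0 CPM in replicates A to E. At 0.19 µg/L it had 41.9, 46.4 and 41.9 CPM in replicates A to C. At 0.74 µg/L replicates A to E had 58.3, 68.4, 36.6, 41.9 and 41.4 CPM. The water libraries fell into a higher set of A, B and D and a lower pair of C and E, and the lower pair was within reach of the treated libraries. At 3.38 µg/L the 5 libraries had 41.9, 54.1, 46.2, 42.9 and 50.0 CPM. At 10.2 µg/L they had 44.3, 34.4, 56.0, 39.0 and 53.5 CPM. At 47.2 µg/L replicates A to C had 40.6, 49.4 and 41.7 CPM. All 3 libraries lay below all 5 water libraries at 0.19 µg/L and again at 47.2 µg/L, a separation that 3.3% and 3.08% of the 43837 tested transcripts also showed in that direction. At 0.74, 3.38 and 10.2 µg/L the groups overlapped.

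Group means of the tefb transcript were 43.4 ± 2.59 CPM (SD, n = 3) at 0.19 µg/L, 49.3 ± 13.5 CPM at 0.74 µg/L, 47.0 ± 5.08 CPM at 3.38 µg/L, 45.4 ± 9.23 CPM at 10.2 µg/L and 43.9 ± 4.78 CPM at 47.2 µg/L (n = 3), against 68.5 ± 16.2 CPM in water, with n = 5 where not stated. The fitted log2 fold changes of the tefb transcript against water were -0.66 ± 0.21 (SE), -0.48 ± 0.17, -0.54 ± 0.17, -0.59 ± 0.17 and -0.64 ± 0.20 in order of concentration. These 5 values share the same water libraries, so they are not independent of each other. In the authors' deposited table the log2 fold changes of the same tefb transcript were -0.67, -0.48, -0.54, -0.59 and -0.65.

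The chosen nr1d2a transcript lay below every water library at 47.2 µg/L only. Between 0.19 and 10.2 µg/L it varied widely among replicates, its groups overlapped water, and its group means lay on both sides of the water mean. Its water libraries A to E had 5.59, 7.15, 14.4, 7.17 and 5.93 CPM. At 0.19 µg/L the nr1d2a transcript had 4.08, 7.26 and 10.3 CPM, and at 0.74 µg/L it had 4.59, 3.59, 4.63, 3.08 and 12.05 CPM. At 3.38 µg/L the 5 libraries had 4.06, 3.38, 17.2, 6.94 and 15.9 CPM. Within these groups 1 or 2 libraries stood well above the others, replicate C in water and replicates C and E at 3.38 µg/L. At 10.2 µg/L the nr1d2a transcript had 9.37, 7.42, 17.7, 2.99 and 12.5 CPM. At 47.2 µg/L it was given 0 counts in replicate A, 59.8 estimated counts (2.19 CPM) in replicate B and 22.9 estimated counts (1.38 CPM) in replicate C. All 3 of these lay below every water library, as 3.08% of tested transcripts did at that concentration.

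The nr1d2a transcript averaged 7.20 ± 3.10 CPM (SD, n = 3) at 0.19 µg/L, 5.59 ± 3.67 CPM at 0.74 µg/L, 9.49 ± 6.58 CPM at 3.38 µg/L, 9.99 ± 5.50 CPM at 10.2 µg/L and 1.19 ± 1.11 CPM at 47.2 µg/L (n = 3), against 8.05 ± 3.62 CPM in water, with n = 5 where not stated. The fitted log2 fold changes against water were -0.16 ± 0.74 (SE), -0.53 ± 0.64, 0.24 ± 0.63, 0.31 ± 0.63 and -2.73 ± 0.84. For 47.2 µg/L the authors' deposited table gives -2.75. With fragment length as a covariate the log2 fold changes of the nr1d2a transcript at 0.19 and 0.74 µg/L, where fragments were longer than in water, were -0.69 ± 0.93 (SE) and -1.26 ± 0.99.

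**Figure D1:**
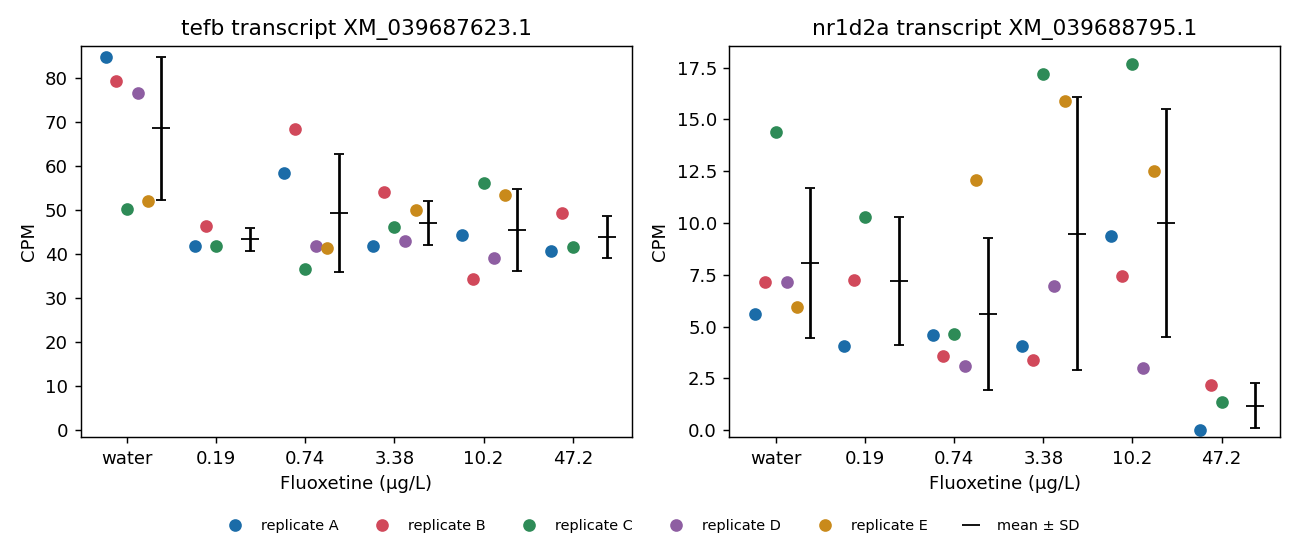
Level in CPM of the chosen tefb transcript (left) and nr1d2a transcript (right) in each of 26 libraries, by fluoxetine concentration with water at the left; colours give the replicate letter, and bars the group mean ± SD (n = 3 or 5). For tefb the highest libraries are water A, B and D, and for nr1d2a the 3 libraries at 47.2 µg/L lie between 0 and 2.19 CPM.

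Neither chosen transcript is the main product of its gene in these larvae. On the TPM scale, which corrects for transcript length, the tefb transcript averaged 30.2 TPM over the 26 libraries, against 69.1 TPM for the most abundant tefb transcript, XM_039687622.1. The nr1d2a transcript averaged 3.90 TPM, against 24.6 TPM for XM_039688794.1, the only other nr1d2a transcript measured. Kallisto, the quantifier named by the submitters, divides reads that transcripts of a gene share between them, so the value of a single transcript is less certain than that of the gene.

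The main tefb transcript XM_039687622.1 was not lower alongside the chosen one. It had 115.9, 175.6 and 126.2 CPM at 47.2 µg/L, against 94.4, 148.7, 84.5, 107.3 and 101.1 CPM in water. Its log2 fold changes were 0.25 ± 0.18 (SE), 0.41 ± 0.16, -0.01 ± 0.16, -0.06 ± 0.16 and 0.38 ± 0.18 in order of concentration, and none was called (edgeR quasi-likelihood test, adjusted p 0.796, 0.499, 1, 1 and 0.536). The 4 remaining tefb transcripts were minor, each averaging under 8 CPM in every group. Summed over its 6 transcripts, tefb had 195 ± 36.9 CPM at 47.2 µg/L (SD, n = 3), against 187 ± 38.1 CPM in water (n = 5). The log2 fold changes of the tefb sum were -0.05 ± 0.16 (SE), 0.10 ± 0.14, -0.16 ± 0.14, -0.21 ± 0.14 and 0.07 ± 0.16.

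The mean share of tefb counts held by the chosen transcript was lower at each fluoxetine concentration than in water. The chosen transcript held 24.2 ± 3.71% of tefb counts (SD, n = 3) at 0.19 µg/L, 24.4 ± 4.03% at 0.74 µg/L, 28.4 ± 2.77% at 3.38 µg/L, 28.2 ± 5.58% at 10.2 µg/L and 22.7 ± 1.70% at 47.2 µg/L (n = 3), against 36.7 ± 4.77% in water, with n = 5 where not stated. The lowest water share was 32.6%. Every library at 0.19, 0.74, 3.38 and 47.2 µg/L lay below it, the highest being 32.4% in replicate C at 3.38 µg/L, while replicate C at 10.2 µg/L reached 35.6%. Since the share contains the chosen transcript, it repeats that description on another scale and was not tested. How many other genes show such a separation of shares was not examined.

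For nr1d2a the contrast between the transcripts was wider at 47.2 µg/L. XM_039688794.1 had 37.0, 68.5 and 60.8 CPM there, against 51.1, 57.5, 34.3, 46.6 and 46.1 CPM in water, and the groups overlapped. Its log2 fold changes were -0.28 ± 0.23 (SE), -0.15 ± 0.20, -0.04 ± 0.20, -0.05 ± 0.20 and 0.23 ± 0.23, none of them called (edgeR quasi-likelihood test, adjusted p 0.84, 1, 1, 1 and 0.886). The chosen transcript held 1.77 ± 1.59% of nr1d2a counts at 47.2 µg/L (SD, n = 3), against 15.0 ± 8.21% in water (n = 5), and the highest share at 47.2 µg/L, 3.09%, was below the lowest in water, 9.87%. How many other genes separate in this way was not examined, and the share again restates the level of the chosen transcript. At 0.19, 0.74, 3.38 and 10.2 µg/L the share averaged 15.2, 11.5, 17.3 and 19.0%, and single libraries reached 37.0%. The nr1d2a sum was 56.6 ± 17.5 CPM at 47.2 µg/L (SD, n = 3), against 55.2 ± 6.01 CPM in water (n = 5), a log2 fold change of 0.04 ± 0.17 (SE).

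**Figure D2:**
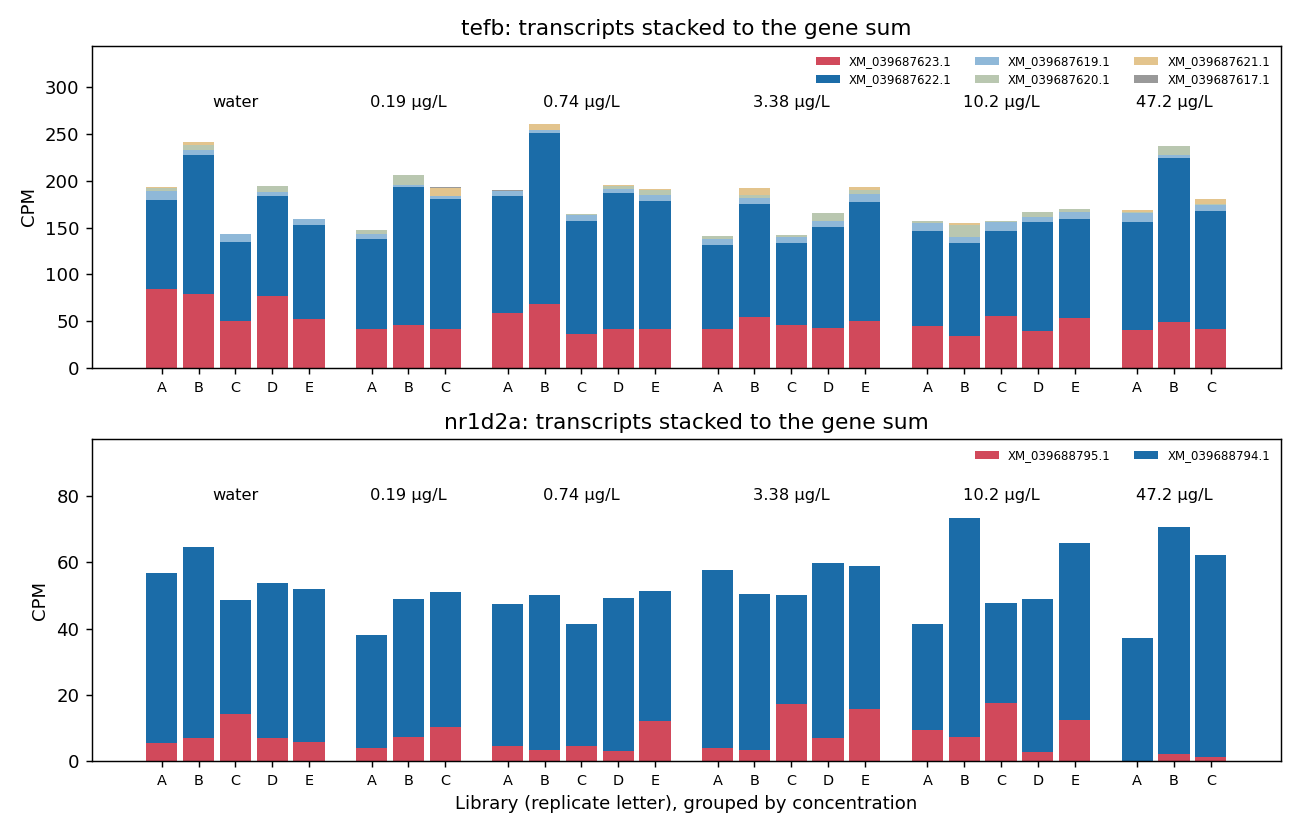
CPM of every tefb transcript (top) and nr1d2a transcript (bottom), stacked to the gene sum, in each of 26 libraries grouped by concentration; red marks the chosen transcript. The red segment of tefb is 32.6% to 43.7% of the bar in water and 20.8% to 24.1% at 47.2 µg/L, and the red segment of nr1d2a is 0% to 3.09% at 47.2 µg/L while the bars themselves overlap those of water.

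The rest of the clock was examined in 5 lists of genes by role, chosen with earlier results of these data known, which together held 75 tested transcripts of 47 genes besides the chosen ones. None passed the test at any concentration or in the F-test of the 5 concentrations together (edgeR quasi-likelihood test, adjusted over all 43837 transcripts). With the replicate letter as a block, the F-test called 2, of rorab and of tefb (XM_039687622.1). The share of all transcripts called with the block is not given here. Without the block, 0.0502%, 0.089%, 0%, 0% and 0.103% of all transcripts were called at the 5 concentrations in order, and 2.71% in the F-test. Few calls would therefore be found in a list of this size without the block. At an unadjusted p below 0.05 the clock list had 0 higher and 5 lower transcripts at 0.19 µg/L, 4 and 0 at 0.74 µg/L, 1 and 2 at 3.38 µg/L, 1 and 1 at 10.2 µg/L, and 5 and 11 at 47.2 µg/L, with 8 in the F-test. DESeq2 called 0 at the 4 lower concentrations and 1 at 47.2 µg/L, a weakly expressed transcript of the receptor gene rorc (lower), where it called 1.29%, 1.04%, 0.15%, 0.219% and 1.77% of all transcripts in order of concentration. Over all transcripts, unadjusted p below 0.05 was reached by 4.15% (higher) and 4.6% (lower) at 0.19 µg/L, 4.17% and 3.92% at 0.74 µg/L, 1.71% and 2.47% at 3.38 µg/L, 2.61% and 2.74% at 10.2 µg/L, 4.73% and 4.62% at 47.2 µg/L, and 14.8% in the F-test. The list's median log2 fold changes were -0.12, 0.02, 0.04, 0.08 and 0.04, beside medians over all transcripts of -0.01, 0, 0.01, 0 and 0. These unadjusted counts and medians come from the fit without the block. With the replicate letter as a block, 11, 15, 17, 21 and 28 clock transcripts reached an unadjusted p below 0.05 (edgeR) in order of concentration. In the F-test with the block 25 did. The share of all transcripts reaching it with the block is not given here.

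By role, the activator and repressor lists leaned in opposite directions at 47.2 µg/L, and none of their transcripts passed the test. The lists were not tested as lists, and transcripts of the same gene in them are not independent. From 0.19 to 10.2 µg/L the medians were -0.03, 0.07, 0.26 and 0.19 for the activators. For the repressors they were -0.31, -0.09, -0.20 and -0.23. The values that follow are for 47.2 µg/L. The 12 activator transcripts (clock, npas2 and bmal genes) had a median log2 fold change of 0.38, with 9 above 0. Of the 2 most abundant, clockb had 53.1 ± 1.22 CPM at 47.2 µg/L (SD, n = 3) against 45.8 ± 2.90 CPM in water (n = 5), with an edgeR adjusted p of 0.57. For bmal1a the values were 40.4 ± 9.53 CPM at 47.2 µg/L (n = 3) and 25.7 ± 7.26 CPM in water (n = 5), with an edgeR adjusted p of 0.398. The 19 repressor transcripts (period, cryptochrome, ciart and bhlhe genes) had a median of -0.67, with 12 below 0. The most abundant, XM_039674238.1 of per3, had 198 ± 73.8 CPM at 47.2 µg/L (n = 3) against 379 ± 50.6 CPM in water (n = 5), a log2 fold change of -0.93 ± 0.30 (SE; edgeR adjusted p 0.278). The cryptochrome transcript of cry3a, next in abundance, had a log2 fold change of 0.09 ± 0.13 (edgeR adjusted p 0.966). With the replicate letter as a block, the edgeR adjusted p was 0.474 for clockb and 0.105 for bmal1a. It was 0.0873 for the per3 transcript and 0.925 for cry3a.

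The 12 REV-ERB and ROR transcripts had a median log2 fold change of -0.12 at 47.2 µg/L. Among the relatives of nr1d2a, nr1d2b had 130 ± 64.1 CPM at 47.2 µg/L (SD, n = 3) against 213 ± 12.7 CPM in water (n = 5), a log2 fold change of -0.71 ± 0.33 (SE; edgeR adjusted p 0.505). For nr1d1 the log2 fold change was -1.63 ± 0.81 (edgeR adjusted p 0.546), for nr1d4a 0.33 ± 0.39 (0.935) and for nr1d4b 0.94 ± 0.39 (0.45). The ROR transcript of rorca, which opposes REV-ERB at the bmal genes, was at 0.39 ± 0.34 (edgeR adjusted p 0.856). With the replicate letter as a block, nr1d1 was at -1.48 ± 0.41 (SE; edgeR adjusted p 0.122). In the same fit nr1d2b was at -0.71 ± 0.25 (0.229) and rorca at 0.21 ± 0.16 (0.693).

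The 20 transcripts of PAR bZIP and NFIL3 factors had a median log2 fold change of 0.25 at 47.2 µg/L. The transcripts of tefa, the paralog of tefb, were at -0.81 ± 0.41 (XM_039685390.1, SE, edgeR adjusted p 0.551) and -0.14 ± 0.19 (XM_039685389.1, 0.956). With the replicate letter as a block they were at -0.63 ± 0.22 (edgeR adjusted p 0.232) and -0.05 ± 0.14 (0.959), in the same order. For hlfa, a further PAR bZIP gene, XM_039678039.1 was at -0.12 ± 0.13 (edgeR adjusted p 0.926). The 12 transcripts of casein kinases and ubiquitin ligases, which set the lifetime of period and cryptochrome proteins, had a median of 0. The most abundant of these kinase transcripts were those of csnk1da, at 0.04 ± 0.12 (edgeR adjusted p 0.998), and csnk1db, at 0.21 ± 0.12 (0.619).

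**Figure D3:**
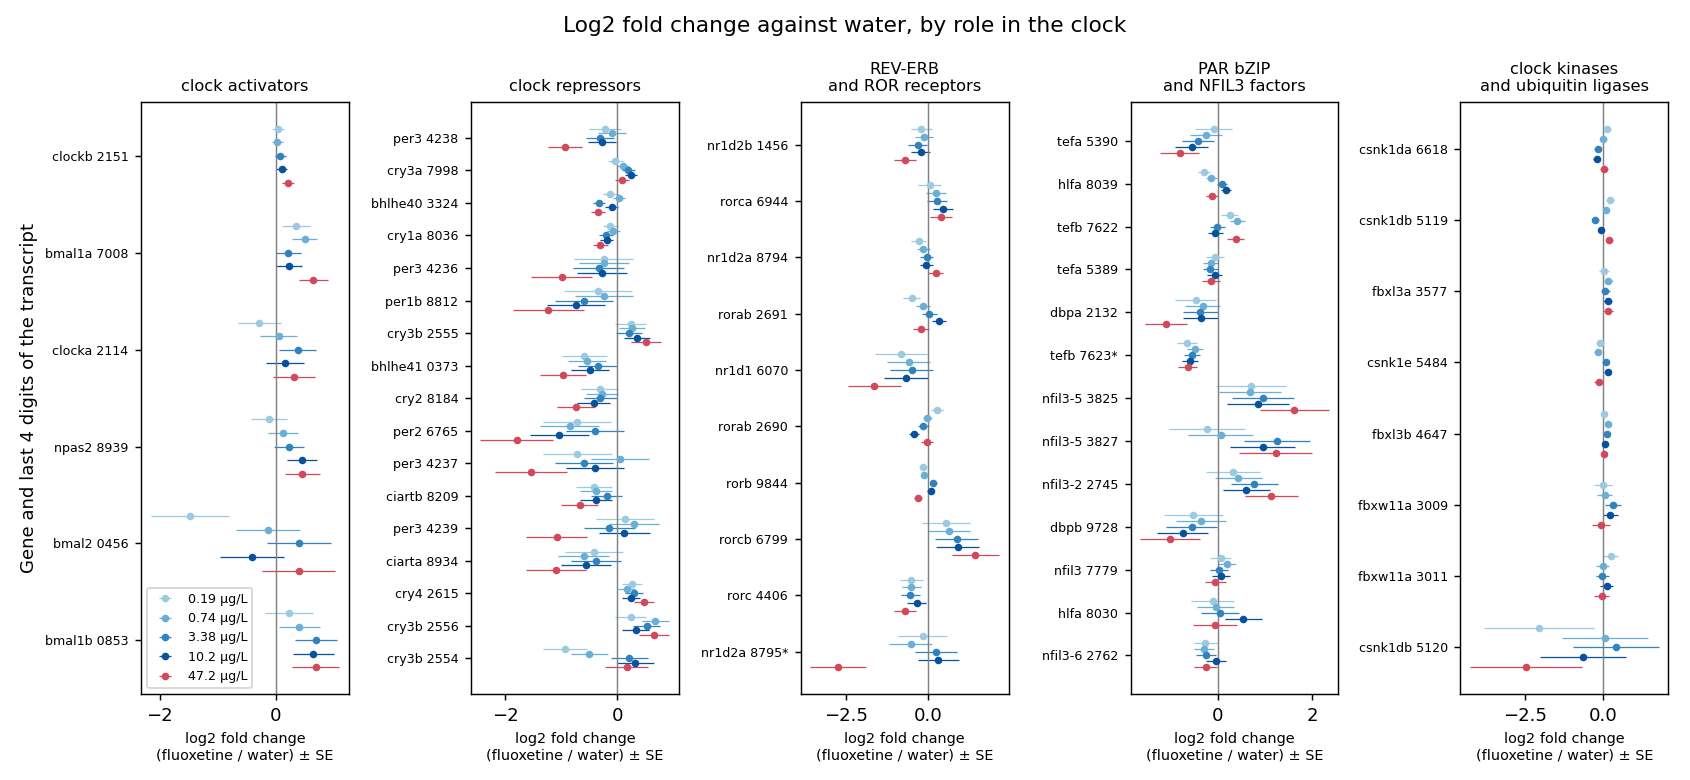
Log2 fold change against water (± SE, from the edgeR fit) of clock transcripts with a mean of at least 10 CPM and of the chosen tefb and nr1d2a transcripts (asterisks), by role, with colours for the 5 concentrations; the horizontal scale differs between panels. The chosen tefb transcript lies between -0.66 and -0.48 at every concentration, beside 0.38 at 47.2 µg/L for the main tefb transcript.

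Genes that respond to light or stress hormone were set beside these. The 11 tested transcripts of light-inducible DNA repair genes, which in zebrafish are induced by light partly through PAR bZIP sites, had median log2 fold changes of -0.16, -0.26, -0.18, -0.40 and -0.84 in order of concentration, and all 11 were below 0 at 10.2 and at 47.2 µg/L. None was called (edgeR; 2 lower at an unadjusted p below 0.05 at 47.2 µg/L, and 0 called by DESeq2). With the replicate letter as a block, the medians at 10.2 and 47.2 µg/L were -0.46 and -0.35, with 11 and 10 below 0. The 11 transcripts belong to 8 genes. Within groups they correlated with nr1d1 from -0.09 (a ddb2 transcript) to 0.94 (a cry-dash transcript), so they are not independent of each other. The 17 transcripts of glucocorticoid-responsive genes had medians of -0.20, -0.08, 0.07, 0.01 and 0.28, with 4 higher and 1 lower at an unadjusted p below 0.05 at 47.2 µg/L. None of these was called at any concentration by DESeq2, which was run without an F-test. On all 26 libraries, edgeR with neither a block nor the level of the clock gene nr1d1 as a covariate called none. With the replicate letter as a block, edgeR called 1 of tsc22d3 (higher) at 47.2 µg/L and 2, of nr3c1 and tsc22d3, in the F-test. The share of all transcripts called with the block is not given here. Leaving out 1 library at a time, without a block, gave 0 to 1 calls of these transcripts in the F-test. The highest log2 fold change in that list at 47.2 µg/L was that of a transcript of fkbp5, encoding a co-chaperone of the glucocorticoid receptor, at 1.77 ± 0.56 (SE; edgeR adjusted p 0.279). The other tested fkbp5 transcript was at 0.76 there, and at 0.64 ± 0.65 with the block (edgeR adjusted p 0.804).

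Many clock transcripts varied strongly between libraries, and some of them varied with the replicate letter. The REV-ERB gene nr1d1, taken as a yardstick after its values had been seen, ranged from 5.50 to 89.6 CPM over the 26 libraries. Its 12 libraries of letters A and C had 5.50 to 33.0 CPM, below all 14 libraries of letters B, D and E at 33.1 to 89.6 CPM. The nearest libraries of the sets were water A at 32.97 CPM and 0.74 µg/L E at 33.11 CPM. This split of the letters was also chosen from these values. How many other transcripts separate in this way was not examined. For nfil3-5 (XM_039663825.1), an antagonist of the PAR bZIP factors, the medians by letter ran the opposite way, at 66.6 CPM in A, 14.5 in B, 34.7 in C, 17.0 in D and 13.8 in E. Its mean deviations from the group means in letters A to E were 1.24, -0.99, 0.39, -0.44 and -0.53 (log2). By contrast, the mean deviation of the transcript of the ubiquitin ligase gene fbxl3b from the group means lay between -0.04 and 0.03 (log2) in the 5 letters. Both nfil3-5 and fbxl3b were chosen as examples after their values were seen. The groups at 0.19 and 47.2 µg/L have no D or E library, so letters A and C make up 2 of their 3 libraries, against 2 of 5 in water. With the replicate letter as a block, the median log2 fold change at 47.2 µg/L was -0.47 in place of -0.67 for the repressors, 0.25 in place of 0.38 for the activators and -0.35 in place of -0.84 for the DNA repair genes. At 3.38 and 10.2 µg/L the block gave -0.32 and -0.32 in place of -0.20 and -0.23 for the repressors. There it gave 0.19 and 0.09 in place of 0.26 and 0.19 for the activators. For the DNA repair genes it gave -0.27 and -0.46 in place of -0.18 and -0.40. What the letters stand for, and whether they mark the hour of sampling, was not tested.

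Deviations from the group means showed how far the clock genes moved with each other. Of 51 other clock transcripts with a mean of at least 10 CPM, 21 had a correlation with nr1d1 above 0.5, 17 had one below -0.5 and 13 lay between, over 26 libraries. The share of all transcripts beyond these limits was not examined, so the counts are not read as particular to clock genes. On the side of nr1d1 were the PAR bZIP gene dbpa (r = 0.98) and the repressor per1b (0.97), together with tefa (XM_039685390.1, 0.97). On the opposite side were rorcb (-0.98), nfil3-2 (-0.96) and bmal1a (-0.91). These correlations describe 1 set of libraries whose clock genes share depth and scaling, and they carry no test.

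**Figure D4:**
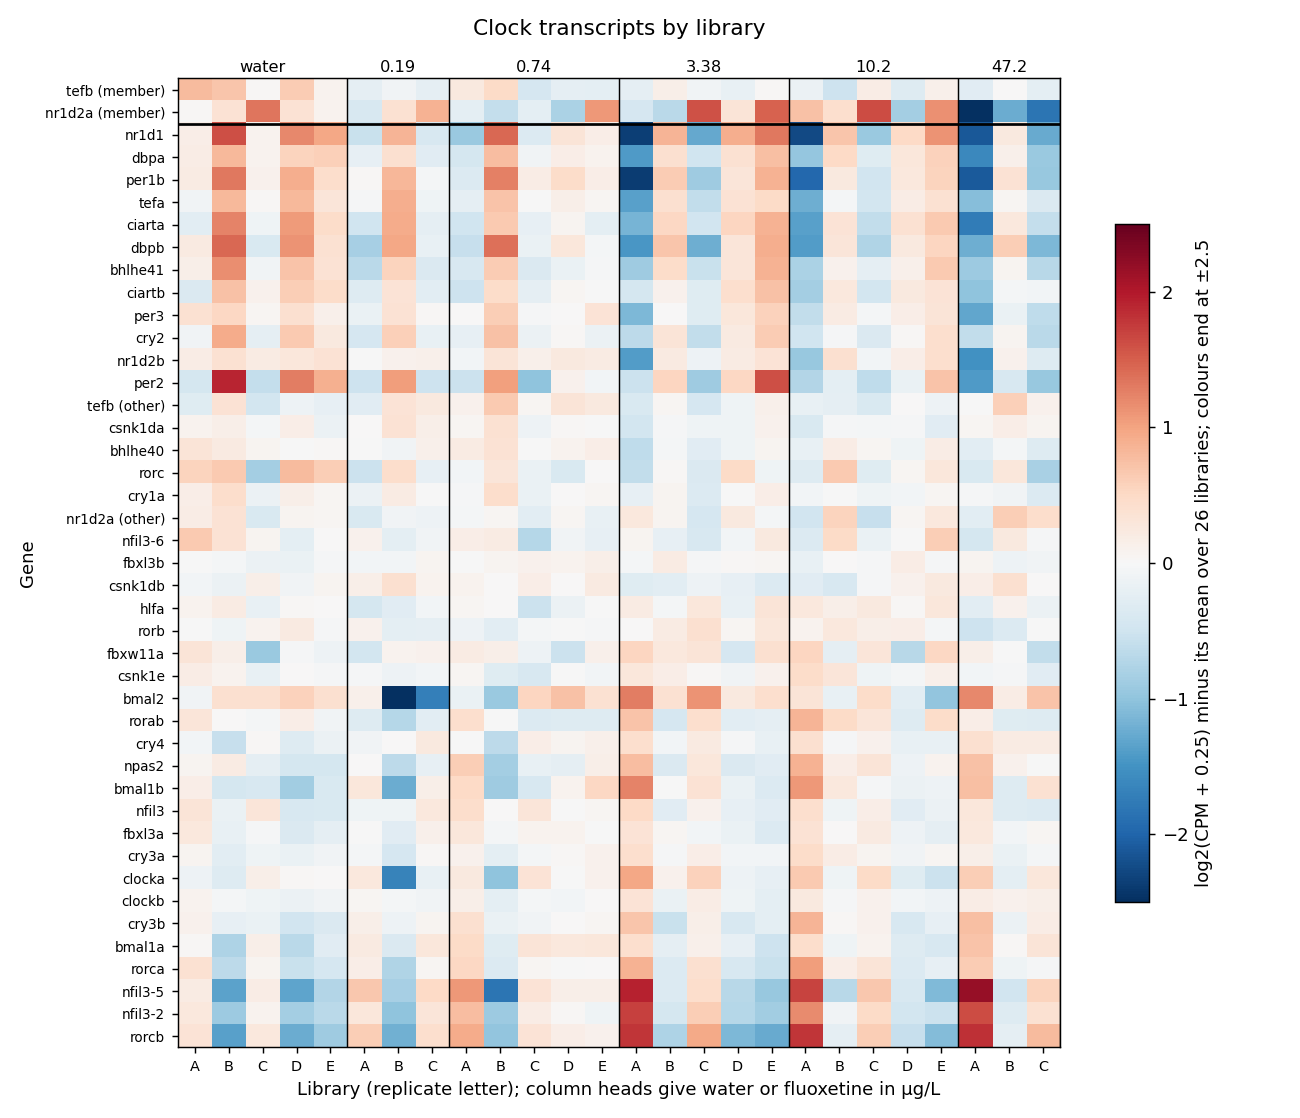
Level of clock transcripts by library, as log2(CPM + 0.25) minus the mean over 26 libraries (red higher, blue lower, colours ending at ±2.5); columns are libraries grouped by concentration with replicate letters, and rows are the chosen tefb and nr1d2a transcripts above 1 transcript per clock gene (the most abundant, at least 10 CPM), ordered by correlation with nr1d1. The libraries of letter A at 3.38, 10.2 and 47.2 µg/L are low in nr1d1 and high in rorcb and nfil3-2, while the chosen tefb row is at most weakly coloured in those libraries.

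Within groups, fragment length correlated with the tefb transcript at r = 0.13 and with the nr1d2a transcript at 0.02. Group means were removed from both, so these values do not bear on the fragment length difference between groups. On log2 CPM with the groups left in, r was -0.03 and -0.06. For the main transcripts of tefb (XM_039687622.1) and nr1d2a (XM_039688794.1) it was 0.39 and -0.47. The chosen tefb and nr1d2a transcripts took little part in the common variation of the clock genes within groups. Their deviations from the group means correlated with each other at r = 0.09 (Spearman's rho 0.08, n = 26 libraries), and at 0.13 without the 2 libraries farthest from the tefb median. On log2 CPM with the concentration groups left in, r was 0.19 (rho 0.21). Their correlations with nr1d1 within groups were 0.23 for the tefb transcript and 0.14 for the nr1d2a transcript. With the groups left in they were 0.40 and 0.32. Over the 52 clock transcripts of at least 10 CPM, within groups, r with the tefb transcript ran from -0.52 (cry4) to 0.58 (cry1a). It was above 0.5 for 4 of them and below -0.5 for 1. For the nr1d2a transcript r stayed between -0.46 and 0.45. The 52 include the main transcripts of tefb and nr1d2a. With the groups left in, r of the tefb transcript was -0.63 with cry4 and 0.63 with cry1a.

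The main transcripts of the same genes did follow this common variation within groups. Those of tefb (XM_039687622.1) and nr1d2a (XM_039688794.1) correlated with each other at r = 0.52 (rho 0.54) and with nr1d1 at 0.72 and 0.57. On log2 CPM with the groups left in, the main transcripts correlated with each other at 0.36 (rho 0.29). The summed counts of tefb correlated with nr1d1 at 0.68 and those of nr1d2a at 0.58, and the sums correlated with each other at 0.49. The chosen tefb transcript correlated with the main one at 0.43, and the chosen nr1d2a transcript with the other one at 0.01. Between letters, the tefb transcript had medians of 43.1 CPM in A, 51.7 in B, 44.0 in C, 42.4 in D and 51.0 in E, which is not the order of nr1d1. The nr1d2a transcript had medians of 4.35, 5.37, 12.3, 5.01 and 12.3 CPM in letters A to E, highest in C and E.

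The 10 transcripts that moved most like each chosen one held none of the clock lists. Those lists have 75 tested transcripts beside 21447 ranked, so their absence from a top 10 says little. The highest of so many correlations can also be large by chance. Among 21447 named transcripts with a mean of at least 1 CPM, the 10 most like the nr1d2a transcript (r on deviations from group means, 26 libraries) were sirt6 (0.84), plpp7a, ptp4a2a, ppiaa, tpma, mylz3, nkain4, tnnc2.2, prdm12b and s1pr1 (0.76). Of these, tpma (0.78), mylz3 (0.78) and tnnc2.2 (0.77) encode tropomyosin, a myosin light chain and a troponin C of skeletal muscle. The most opposed to it were optn (-0.79), mknk1, ttll6, uevld and vcp (-0.77). Those most like the tefb transcript included gps1 (0.75), sirt4, c23h21orf91, pdcd11, myo1ea, ncmap, kat5a, eif3ba and ahnak (0.66), and the most opposed were nrbp1 (-0.76), fam204a, anapc15, prc1b and myl2b (-0.71).

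The summed levels of marker lists of larval tissues were set beside the chosen transcripts. The sum of 13 skeletal muscle transcripts (11 genes of 18 listed, all detected in every library) correlated with the nr1d2a transcript at r = 0.73 (rho 0.76), with the other nr1d2a transcript at -0.02 and with the tefb transcript at -0.08. Taken singly, the 13 correlated with the nr1d2a transcript from 0.21, for a second tpma transcript, to 0.78. The 3 muscle transcripts of the ranking above are part of that sum (32.4% of it), and without them r with the nr1d2a transcript was 0.66 (rho 0.68, 10 transcripts), a setting chosen after the ranking was seen. Between groups the muscle sum overlapped, at 38240 to 50900 CPM at 47.2 µg/L against 38980 to 52980 CPM in water. Its part in the spread of the nr1d2a transcript was not tested. The sum of 20 pineal and photoreceptor genes, in which clock output is strong, was 2247 to 2682 CPM at 0.19 µg/L and 2243 to 2698 CPM at 47.2 µg/L, against 2805 to 3585 CPM in water. It was 2517 to 3185 CPM at 0.74 µg/L, 3065 to 4143 CPM at 3.38 µg/L and 2806 to 4735 CPM at 10.2 µg/L. Of single tested transcripts, 3.3% at 0.19 µg/L and 3.08% at 47.2 µg/L also lay below all water libraries. How often sums of such lists separate in this way was not examined. Within groups the pineal and photoreceptor sum correlated with the tefb transcript at -0.10. The sum of 36 neuronal transcripts was 2461 to 2565 CPM at 0.19 µg/L, below all water libraries, and 2334 to 2710 CPM at 47.2 µg/L, against 2615 to 3026 CPM in water, and that of 12 hepatocyte transcripts was 6143 to 7351 CPM at 47.2 µg/L against 6306 to 8695 CPM in water. Within groups the neuronal sum correlated with the tefb transcript at -0.05. The part of these lists in the level of the chosen transcripts was not tested.

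**Figure D5:**
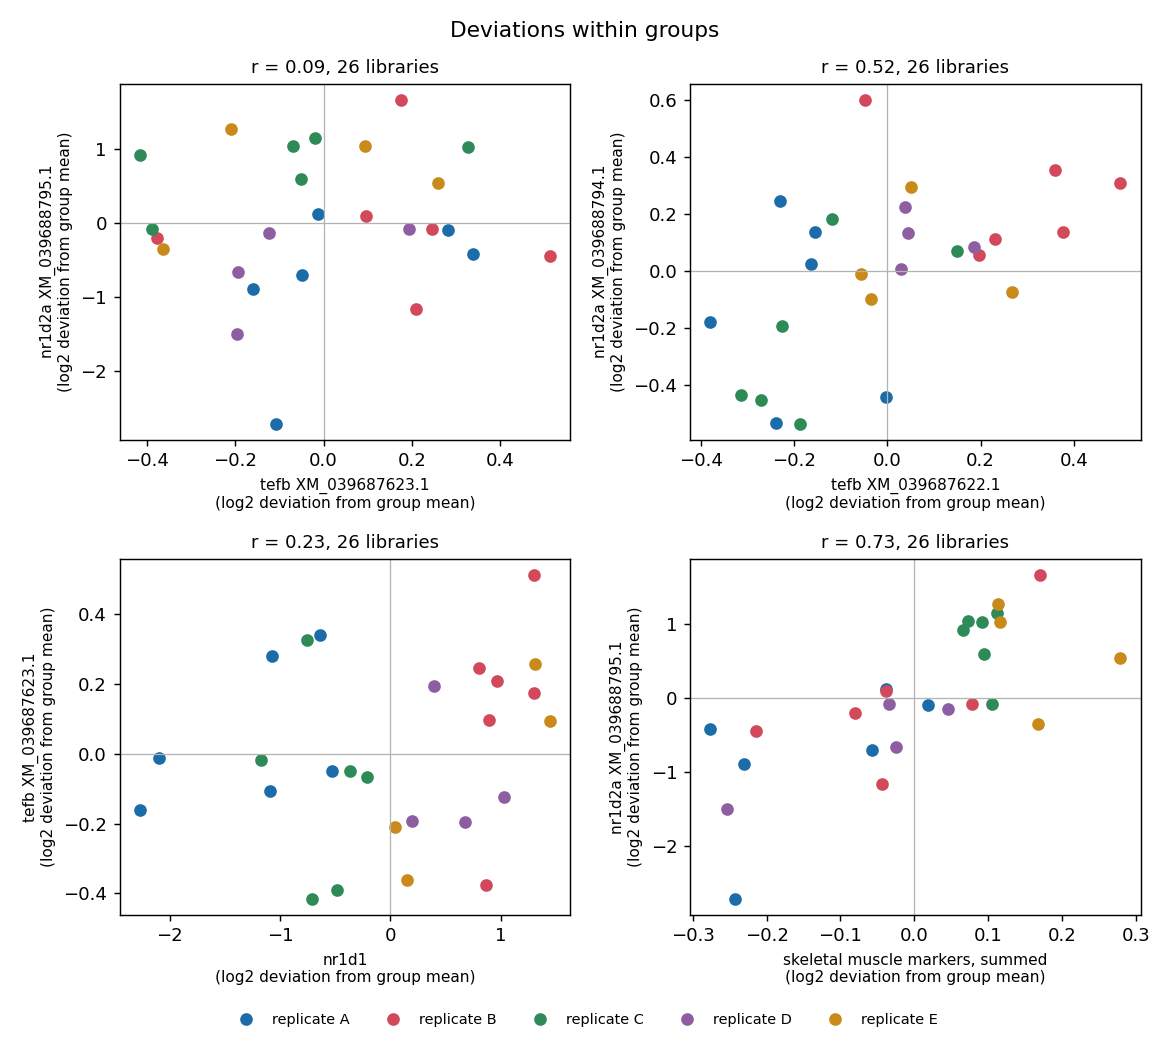
Deviations from group means on the log2 CPM scale in 26 libraries, coloured by replicate letter, for the chosen tefb and nr1d2a transcripts (r = 0.09), the main transcripts of both genes (r = 0.52), nr1d1 and the tefb transcript (r = 0.23), and the summed skeletal muscle markers and the nr1d2a transcript (r = 0.73). The muscle panel slopes upward, the panel of main transcripts slopes upward with more scatter, and the panels on the left show little slope.

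The spread of the chosen transcripts within groups was wider than for most transcripts of like level. The SD within groups on the log2 scale was 0.28 for the tefb transcript, above 74.2% of the 5746 transcripts within a factor of 2 of its mean CPM, whose median SD was 0.19. For the nr1d2a transcript it was 1.09, above 78.6% of 13300 transcripts, whose median was 0.40. Its SD includes replicates A, B and C at 47.2 µg/L, at 0, 2.19 and 1.38 CPM. Those libraries deviated by -2.71, 1.67 and 1.04 (log2) from their group mean. The SD without these low libraries was not computed.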

How the data were processed

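RNA was measured in 26 pools. Per the submitters' processing notes, Trimmomatic 0.38, kallisto and DESeq2 were used, with an index and build not given in the sources used here. Deposited files hold kallisto's estimated counts and TPM per transcript, and a results table of 26962 transcripts per concentration. Per the file headers, it holds a mean of normalized counts (a signal), a log2 fold change with its standard error, a test statistic (a score), a p-value and an adjusted p-value.

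Estimated counts as deposited were rounded and tested per transcript with edgeR 4.0.16 (limma 3.58.1, R 4.3.3, files read by version 1.17.8 of data.table). The steps were filterByExpr, TMM scaling, a robust quasi-likelihood fit to all 26 libraries, and Benjamini-Hochberg adjustment over the 43837 transcripts tested at a threshold of 0.05. Tests were two-sided. DESeq2 1.42.0 was an alternative. CPM values use TMM-scaled totals, and log2 CPM a prior count of 2. Correlations used deviations of log2 CPM from group means. Gene names came from a RefSeq gene table of assembly fPimPro1.hap1.1. That build may differ from the authors' own, and it paired 55.1% of transcripts when accession versions were ignored. The edgeR fit was tested on simulated data.

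The chosen transcripts, gene lists and tests were selected with earlier results of these data known. Named genes were the chosen transcripts, called clock transcripts, the 2 most abundant transcripts per role, tef and nr1d relatives, and the 10 most and 5 least correlated transcripts of each chosen one, of which 1 is not reported here. Genes named beyond that rule (rorc, nr1d1 as yardstick, nfil3-5, nfil3-2, dbpa, per1b, rorcb, cry4, cry1a, fkbp5) were chosen after their values were seen. Alternatives were another tool, filter, prior count, sample set, sums per gene, a fragment length covariate, a replicate block and leaving out libraries.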

Additional observations from a re-analysis of the deposited data

Results flagged for a closer look

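Single libraries stood far from the others of their group in 4 of 32 groups examined, and all 4 concern the nr1d2a transcript XM_039688795.1. The rule has a nominal rate of about 1 in 20. The 32 are levels, gene sums and shares of the same genes and libraries. They are not independent, so the count cannot be set against that rate. Replicate E at 0.74 µg/L had 12.05 CPM, with the next library at 4.63 CPM, and the transcript's share of nr1d2a counts there was 23.4%, with the next at 11.2%. In water, replicate C had 14.4 CPM, with the next library at 7.17 CPM, and a share of 29.6%, with the next at 13.3%. The 2 shares restate the 2 levels. The cause was not tested.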

How the results depend on the processing

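With counts summed per gene, the tefb log2 fold changes became -0.05, 0.10, -0.16, -0.21 and 0.07 in order of concentration, that of nr1d2a at 47.2 µg/L became 0.04, and the correlation of the genes' deviations became 0.49. A prior count of 0.5, taken as a difference of group means of log2 CPM, gave -4.10 for the nr1d2a transcript at 47.2 µg/L. This is another measure than the fitted -2.73, and replicate A there had 0 counts. The part of that library in the difference was not tested. Leaving out 1 library at a time, the tefb transcript stayed between -0.75 and -0.57, -0.62 and -0.39, -0.64 and -0.46, -0.69 and -0.51, and -0.74 and -0.56 at the 5 concentrations. The nr1d2a transcript lay between -0.51 and 0.16, -1.02 and -0.21, -0.09 and 0.56, 0 and 0.63, and -3.55 and -2.16, and the covariation between 0.02 and 0.19. With fragment length as a covariate, tefb was at -0.75, -0.59, -0.54, -0.57 and -0.65 and nr1d2a at -0.69, -1.26, 0.28, 0.46 and -2.56.

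The letters did not meet the rule for pairing, since only 42 of 57 same-letter pairs correlated above 0.1 (mean r 0.26, range -0.21 to 0.65). Of 222 pairs with different letters, 55 correlated above 0.1 (mean r -0.06, range -0.6 to 0.4). Libraries of the same letter were thus more alike on average, and the main fit holds no term for the letter. With the replicate block, the chosen transcripts were at -0.70, -0.49, -0.54, -0.57 and -0.69 (tefb) and -0.22, -0.61, 0.06, 0.21 and -2.85 (nr1d2a), and the F-test called 2 clock transcripts, of rorab and tefb (XM_039687622.1), in place of 0. With the nr1d1 level as a covariate, an alternative added after the data were seen, it called 1, of tefb. The share of all transcripts called in either fit is not given here. Leaving out 1 library gave 0 to 1 clock calls in the F-test, rorc without replicate B at 3.38 µg/L and rorb without replicate C at 47.2 µg/L. DESeq2 called 1 clock transcript at 47.2 µg/L, and over all transcripts 559, 470, 69, 103 and 747 in order of concentration, where edgeR called 22, 39, 0, 0 and 45. The glucocorticoid list had 1 call at 47.2 µg/L (tsc22d3, higher) and 2 in the F-test (nr3c1 and tsc22d3) with the block or the covariate. Leaving out 1 library at a time gave 0 to 1 calls of that list in the F-test. Groups of 3 and the low counts of the nr1d2a transcript limit the precision.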
